A study of Homo sapiens with 12 samples.

Results

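This comparison set 3 libraries of MD901 cells carrying the short hairpin shCREBBP.1027, aimed at CREBBP, against 3 libraries of MD901 cells carrying a scramble hairpin. These 6 libraries were chosen by their labels from the 12 of the series. The others carry shCREBBP.3753 or shCREBBP.572, also aimed at CREBBP, with 3 libraries each. MD901 is a human germinal-centre-type (GCB) line of diffuse large B-cell lymphoma, and all groups share its wild-type CREBBP. All cells were grown in IMDM with 10% fetal bovine serum. The labels name the hairpin shCREBBP.1027 in one field and shCREBBP.11027 in another, and give no hairpin sequence, time after delivery or selection. Total RNA over 200 nt was depleted of ribosomal RNA and made into stranded libraries. The labels do not say whether the 3 libraries of a group came from separate cultures, so the p-values here measure only the spread between libraries, which may be technical.

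CREBBP encodes an acetyltransferase that is brought to enhancers by transcription factors and acetylates histones and other proteins, and its gene is often mutated in lymphomas of germinal centre origin. In those cells it is known for acting at enhancers that the repressor BCL6 silences, among them enhancers of antigen presentation genes. A short hairpin is processed into a small RNA that guides the silencing machinery to matching messenger RNA, and it can also act on other messengers that share its seed.

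Values were read as FPKM, fragment numbers divided by transcript length and by the mapped total of the library. Differences are of log2(FPKM + 1), hairpin minus scramble, which understates the change of low genes. Each row of the table is an assembled locus with its gene name or names. Of 24181 rows, 11757 had a mean of at least 1 FPKM over the 12 libraries and were tested with limma across all 4 groups. A row is called higher or lower where its Benjamini-Hochberg adjusted p is at most 0.05. The 3 shCREBBP.1027 libraries resembled each other closely, with a mean Spearman correlation across rows of 0.980 each. Scramble replicate 1 stood apart, with 0.942 against 0.959 and 0.950 for the other scramble libraries, so the counts against scramble for the gene lists are given with and without it. Of the single genes described below as having risen or fallen, MT2A and TLR7 lost their calls without this library. Scramble replicate 3 held 6 rows with values far beyond any of the other scramble libraries. The number of reads is not given by FPKM, so the depth is unknown. Markers of the B lineage were present: CD79A, which signals for the B-cell receptor, held 54.9, 72.3 and 82.9 FPKM in scramble and 83.1, 84.9 and 90.2 with shCREBBP.1027, and PAX5 was at 32.6, 23.5 and 22.6 FPKM in scramble and 21.4, 20 and 21.2 with shCREBBP.1027. CD22, another B-cell marker, was close to 0, at 0.129, 0 and 0.0895 FPKM in scramble and 0, 0 and 0.0243 with shCREBBP.1027. Of 17 T and NK cell markers 6 were at 0 in all 6 libraries, as were 2 of 12 myeloid and 3 of 12 fibroblast and epithelial markers. The T and NK markers summed to 33.9 to 40.4 FPKM in scramble and 37.2 to 40.1 with shCREBBP.1027, nearly all of it PRF1. The myeloid markers summed to 1.91 to 3.55 and 4.30 to 5.27 FPKM, and the fibroblast and epithelial markers to 2.01 to 8.30 and 3.68 to 4.93. The highest of these scramble sums was from COL1A1, at 6.85 FPKM in scramble replicate 3 and 0 in the other 5 libraries. FN1, the fibronectin gene, was the one marker of these 3 lists that was called: it held 1.79, 0.876 and 0.182 FPKM in scramble and 3.62, 2.17 and 2.29 with shCREBBP.1027 (log2 difference 0.99 ± 0.34 SE, limma adjusted p = 0.0387), a call kept in 10 of 19 alternatives. CD14, a marker of monocytes, was at 0, 0.154 and 0.0330 FPKM in scramble and 0.916, 0.860 and 1.01 with shCREBBP.1027, too low to be tested. The part of other cell types in the results below was not tested. In bulk RNA, fewer cells with a transcript and less of it per cell cannot be told apart.

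No reduction of CREBBP RNA was seen in the libraries with shCREBBP.1027. The CREBBP locus (chromosome 16, 3775056 to 3930121 on hg19) held 13.7, 7.10 and 5.82 FPKM in scramble and 11.4, 11.7 and 12.6 with shCREBBP.1027. The hairpin libraries lay within the range of the scramble libraries, below scramble replicate 1 and above the other two. The difference was 0.47 ± 0.21 SE and was not called (limma adjusted p = 0.104), and an exact two-sided permutation test of the library labels gave p = 0.4, where 0.1 is the smallest that 3 against 3 libraries allow. Without scramble replicate 1 the difference was 0.80 and was called higher (limma adjusted p = 8.3e-05). The 3 libraries of shCREBBP.3753 held 5.92, 6.16 and 6.10 FPKM and those of shCREBBP.572 held 7.99, 7.53 and 6.91, all below every shCREBBP.1027 library. Against the mean of these hairpins CREBBP was higher by 0.74 ± 0.18 SE (limma adjusted p = 0.00708). EP300, the closest relative of CREBBP, shares its row with MIR1281 and held 24.6, 10.7 and 8.48 FPKM in scramble and 14.4, 10.7 and 15.4 with shCREBBP.1027, with a difference of 0.01 ± 0.29 SE (exact permutation p = 1); without scramble replicate 1 it was 0.44 and called higher (limma adjusted p = 0.0376). FPKM gives no protein level. The changes below are therefore those of libraries labelled shCREBBP.1027, not of a measured loss of CREBBP.

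The hairpin libraries differed from scramble at a large share of the transcriptome. Of the 11757 rows, 1938 were called higher (16.5%) and 2671 lower (22.7%), which is 39.2% called either way. Most differences were modest: the median called rise was 0.54 and the median called fall was -0.58 on the log2 scale. Only 255 of the rises and 397 of the falls reached 1 on that scale. The median over all tested rows was -0.03. Of the called rows 4373 had no value of 0 in the 6 libraries and no overlap between the groups, while 47.0% of all tested rows did not overlap, 21.1% with the hairpin above and 26.0% with it below. Calls and overlap come from the same values, so the first count describes the called rows and is no separate support. Without scramble replicate 1, 1959 rows were called higher (16.7%) and 3166 lower (26.9%), and 4123 of the 4609 calls were kept. The balance of rises and falls depended on scaling: falls made up 58.0% of the calls as deposited, 47.7% after upper-quartile scaling and 47.4% after quantile normalization. The difference also moved with the GC content of the transcripts, from a median of 0.04 in the lowest to -0.18 in the highest of 5 equal bins of rows by GC. With GC-adjusted values 2348 rows were called higher and 2541 lower, and of 131 named rows other than CREBBP 128 kept their direction and their side of the threshold.

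**Figure D1:**
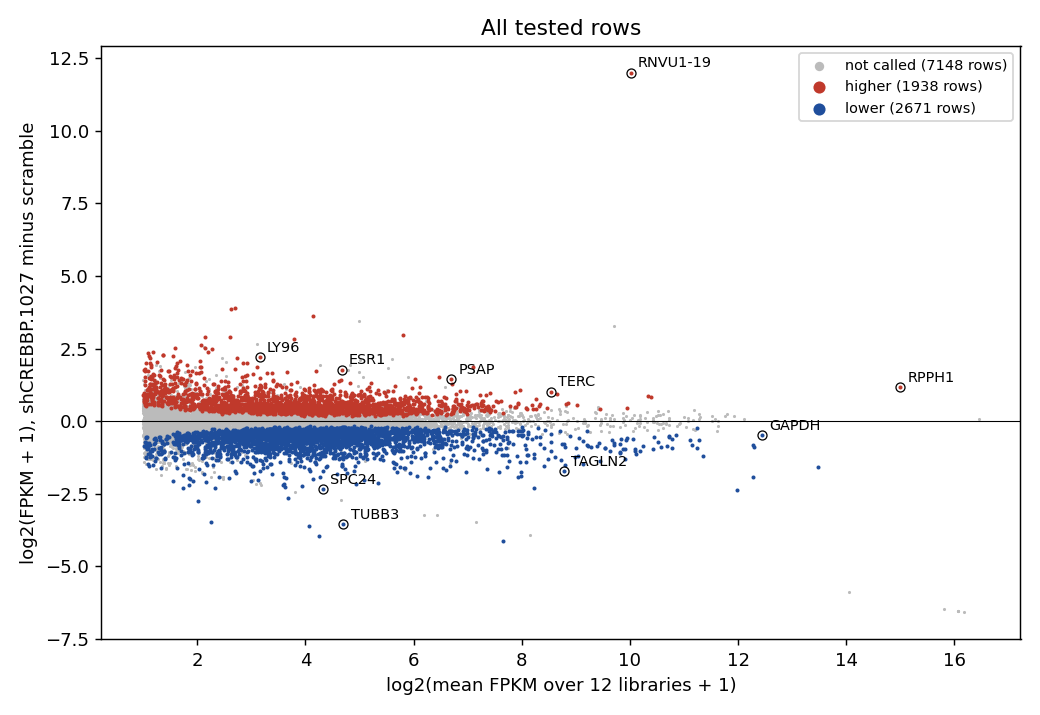
Difference between shCREBBP.1027 and scramble (log2(FPKM + 1), vertical axis) against the mean level over the 12 libraries (log2, horizontal axis) for the 11757 tested rows, with 1938 rows called higher in red, 2671 lower in blue and the rest in grey. Named rows are circled; RNVU1-19, a spliceosomal RNA row, was listed at 0 in all scramble libraries, and the grey points at the bottom right are rows with values in scramble replicate 3 alone.

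Among called rows with 1 unrepeated gene name, no value of 0 and separate groups, the deepest fall was that of TUBB3. Symbols of many noncoding RNAs were also left out of this ranking. TUBB3 encodes the class III beta-tubulin best known from neurons. TUBB3 (chromosome 16, 89988417 to 90002505) held 32.5, 36 and 45.5 FPKM in scramble and 2.34, 2.18 and 2.33 with shCREBBP.1027, a 16.6-fold lower mean (log2 difference -3.56 ± 0.11 SE, limma adjusted p = 6.6e-09). Every hairpin library was far below every scramble library, and the other hairpins were nearer to scramble, at 32.9 ± 1.79 FPKM (SD, n = 3) with shCREBBP.3753 and 26.9 ± 1.57 with shCREBBP.572. SPC24, a subunit of the NDC80 complex that joins kinetochores to microtubules, held 29.1, 27.8 and 29.8 FPKM in scramble and 5.18, 4.49 and 5.01 with shCREBBP.1027 (log2 difference -2.34 ± 0.10 SE, limma adjusted p = 2.0e-07). SPIB, an ETS-family transcription factor of B cells, held 20, 22.2 and 24.4 FPKM in scramble and 3.78, 4.19 and 3.41 with shCREBBP.1027 (log2 difference -2.27 ± 0.11 SE, limma adjusted p = 2.8e-07). Neither gene's groups came near each other. BHLHA15, a transcription factor of secretory cells, fell from 6.76, 9.28 and 9.74 FPKM to 0.925, 1.28 and 0.654 (log2 difference -2.29 ± 0.18 SE, limma adjusted p = 3.4e-06). DPEP1, a membrane dipeptidase, fell from 16.6, 21.2 and 27.8 FPKM to 3.18, 1.48 and 3.26 (log2 difference -2.67 ± 0.24 SE, limma adjusted p = 1.2e-05). SLC44A2, a choline transporter-like membrane protein, fell from 20.8, 21.8 and 23 FPKM to 3.92, 3.47 and 4.32, with 5.60-fold between the means. In all of these the lowest scramble value was several times the highest hairpin value.

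The RNAs of both telomerase components changed, in opposite directions. TERT, which encodes the catalytic subunit (chromosome 5, 1253076 to 1295162), held 40.3, 29.9 and 31.3 FPKM in scramble and 7.07, 7.62 and 8.26 with shCREBBP.1027 (log2 difference -2.00 ± 0.15 SE, limma adjusted p = 3.3e-06). TERC, the RNA that carries the template (chromosome 3, 169481548 to 169482936), held 268, 294 and 354 FPKM in scramble and 597, 656 and 594 with shCREBBP.1027 (log2 difference 1.02 ± 0.11 SE, limma adjusted p = 4.2e-05). Neither gene's groups overlapped. With shCREBBP.3753 and shCREBBP.572 TERT was at 11.4 ± 1.59 and 13.6 ± 2.65 FPKM (SD, n = 3 each) and TERC at 289.8 ± 27.1 and 278 ± 21.0. TERC was not called against scramble with either of them, while TERT was called lower with both. Against the mean of those hairpins TERC was higher by 1.12 ± 0.10 SE (limma adjusted p = 6.6e-06) and TERT lower by a log2 difference of -0.63 ± 0.13 SE (limma adjusted p = 0.00255). The other falls among the 12 deepest were those of BAHCC1, a chromatin reader, NXPH4, a secreted neurexophilin, the phosphatase gene PTP4A3, PCBD1, a pterin dehydratase, and PFKFB4, with differences of -2.30, -2.18, -2.04, -2.03 and -1.98.

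Among the rows ranked under those same conditions, the steepest rises came from genes that were low in scramble. LY96, the partner of a Toll-like receptor in sensing endotoxin, held 1.73, 2.24 and 3.36 FPKM in scramble and 13.9, 18.7 and 11.5 with shCREBBP.1027 (log2 difference 2.19 ± 0.23 SE, limma adjusted p = 2.8e-05). It was also called higher than scramble with the other hairpins, at 9.67 ± 2.52 and 4.88 ± 0.910 FPKM (SD, n = 3 each). SRGN, the core protein of a granule proteoglycan of blood cells, held 1.78, 3.39 and 1.70 FPKM in scramble and 12.2, 16.4 and 12.3 with shCREBBP.1027 (log2 difference 2.18 ± 0.25 SE, limma adjusted p = 6.0e-05). BANK1, a scaffold of B-cell receptor signalling, held 1.91, 2.07 and 2.66 FPKM in scramble and 9.56, 10.7 and 10.1 with shCREBBP.1027 (log2 difference 1.8 ± 0.15 SE, limma adjusted p = 5.7e-06). For all 3 genes every hairpin library lay above every scramble library. ESR1, the estrogen receptor alpha gene (chromosome 6, 152011140 to 152424557), started from a higher level, 18.7, 12.4 and 12.8 FPKM in scramble and 52.8, 48.0 and 53.4 with shCREBBP.1027 (log2 difference 1.77 ± 0.13 SE, limma adjusted p = 2.4e-06). XPO4, a nuclear transport receptor, rose from 7.20, 12 and 12.3 FPKM to 37.8, 38.0 and 33.8, 3.49-fold between the means. CTTN, the actin-binding protein cortactin, rose from 0.232, 0.200 and 0.239 FPKM to 2.99, 3.22 and 2.06 (log2 difference 1.6 ± 0.15 SE, limma adjusted p = 1.7e-05) and was higher still with the other hairpins, at 4.37 ± 0.194 and 3.28 ± 0.465 FPKM (SD, n = 3 each). GPNMB, DCAF4L1, COL24A1, FABP6 and RFPL3S were also among the 12 steepest rises, with differences of 1.86, 1.71, 1.67, 1.65 and 1.61. RFPL3S is an antisense RNA, and whether its reads can be told from those of its partner gene is not given in the sources used here.

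**Figure D2:**
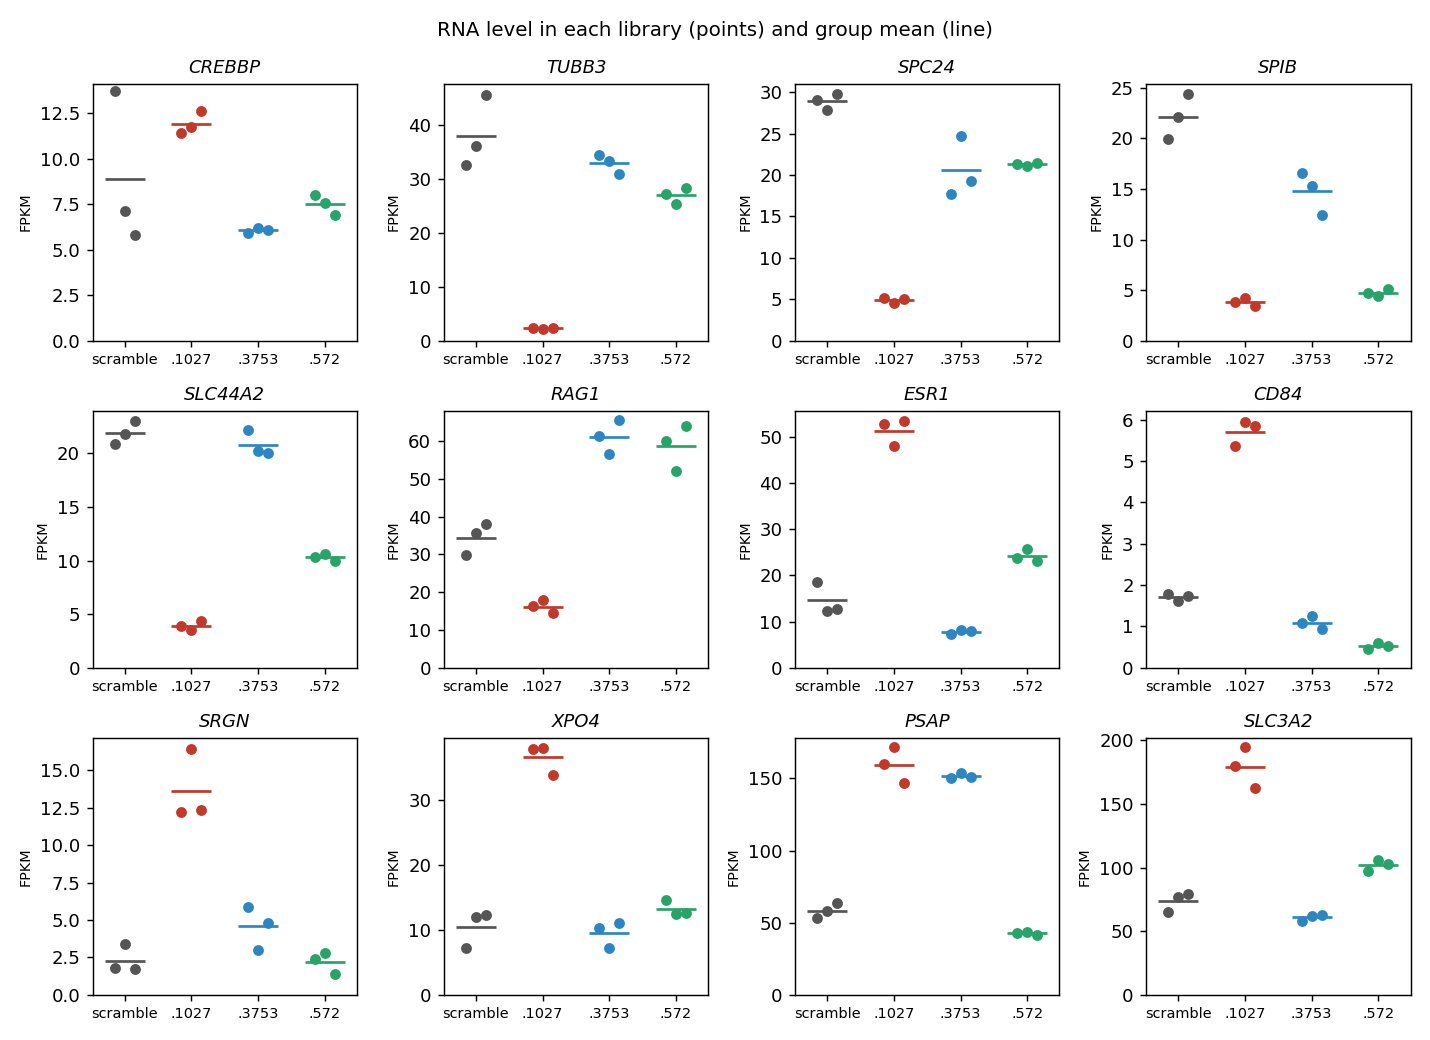
FPKM (vertical axes, starting at 0) of 12 genes in each of the 12 libraries, with points for single libraries in replicate order and lines for group means; the horizontal axes give scramble and the hairpins by the number in their names. TUBB3, SPC24, CD84, SRGN, XPO4 and SLC3A2 stand apart in shCREBBP.1027, and RAG1 is lower there than in scramble but higher with the other hairpins, whereas SPIB is similarly low with shCREBBP.572 and PSAP similarly high with shCREBBP.3753.

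Among abundant transcripts ranked under the same conditions, with a mean of at least 100 FPKM over the 6 libraries, PSAP and SLC3A2 rose most. PSAP, which encodes the precursor of lysosomal lipid-degrading cofactors, held 53.4, 58.3 and 63.5 FPKM in scramble and 159.8, 172 and 147 with shCREBBP.1027 (log2 difference 1.43 ± 0.08 SE, limma adjusted p = 4.7e-07). Its level was as high with shCREBBP.3753, at 152 ± 2.00 FPKM, and not with shCREBBP.572, at 42.6 ± 0.861 (SD, n = 3 each). SLC3A2, the shared heavy chain of several amino acid transporters, held 65.1, 76.9 and 79.0 FPKM in scramble and 180.1, 195 and 162 with shCREBBP.1027 (log2 difference 1.27 ± 0.09 SE, limma adjusted p = 2.4e-06). RPPH1, the RNA of ribonuclease P, rose by 1.17, a call kept in 17 of 20 alternative analyses. On the falling side TAGLN2, an actin-binding protein, held 559, 648 and 704 FPKM in scramble and 194, 193 and 188 with shCREBBP.1027 (log2 difference -1.72 ± 0.09 SE, limma adjusted p = 3.4e-07). CYBA, the small membrane subunit of the phagocyte oxidase, held 234, 276 and 309 FPKM in scramble and 78.4, 84.9 and 78.4 with shCREBBP.1027 (log2 difference -1.74 ± 0.12 SE, limma adjusted p = 1.6e-06). TCL1A, a coactivator of AKT kinases and an oncogene of lymphoid cells, held 282, 367 and 403 FPKM in scramble and 126, 133 and 134 with shCREBBP.1027 (log2 difference -1.40 ± 0.11 SE, limma adjusted p = 3.6e-06). All 3 hairpin libraries lay below all 3 scramble libraries for these genes. UBL5 and MAGED1 fell by 1.58 and by 1.41.

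By gene list, the hairpin libraries were lower mainly in glycolysis, DNA replication, histones, antigen presentation, the secretory pathway and the cytoskeleton, and higher mainly in genes of the amino acid stress response. Antioxidant defence genes leaned upward too, but less so without scramble replicate 1. The counts below are of tested rows, to be read against the 16.5% of all rows called higher and 22.7% called lower. Since the lists were assembled with earlier results of these data known, the counts are descriptions without a test of the list.

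**Figure D3:**
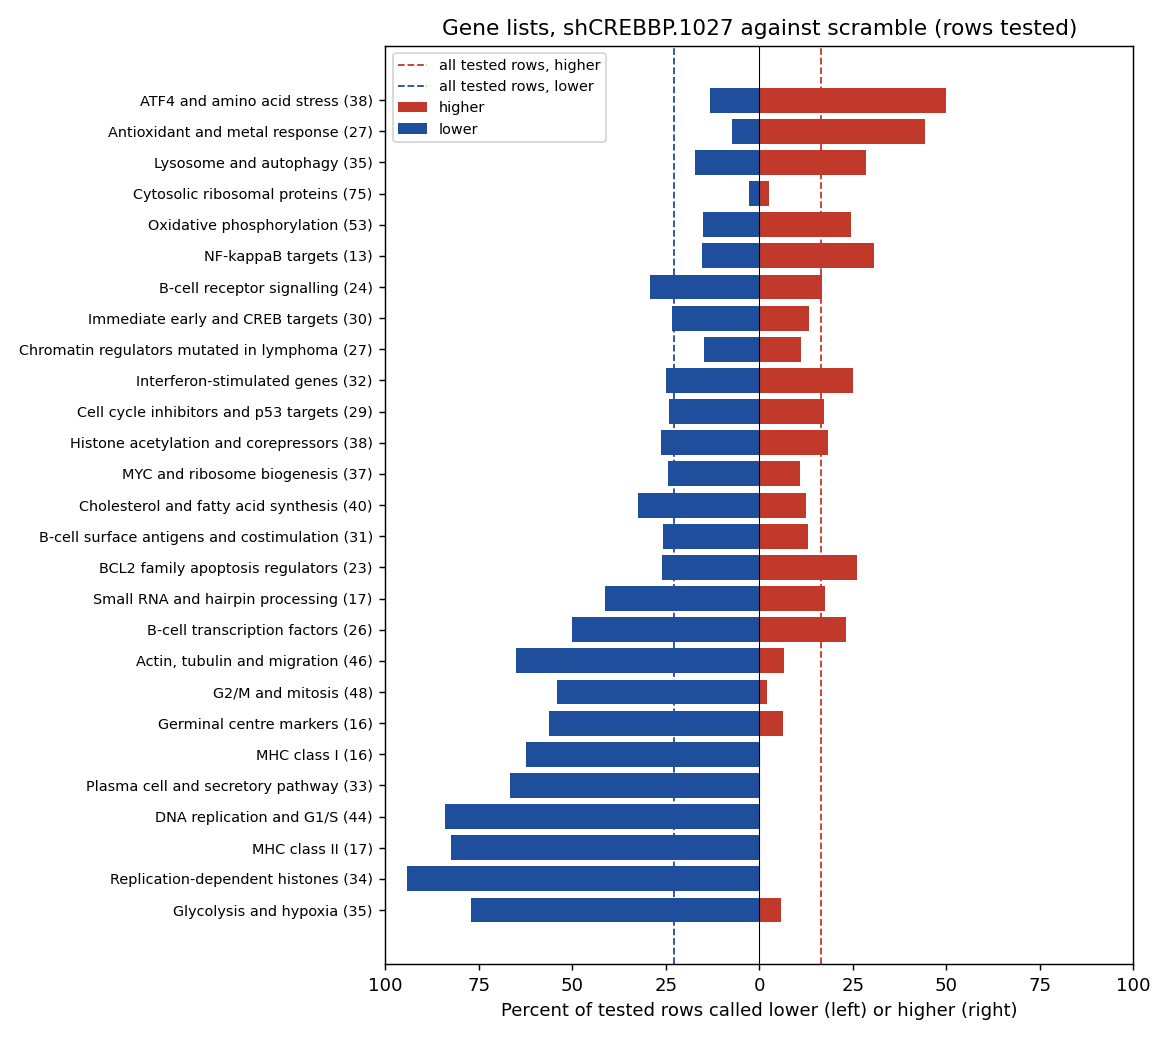
Percent of tested rows called lower (blue, to the left) or higher (red, to the right) in shCREBBP.1027 against scramble for 27 gene lists, ordered by median difference, with the number of tested rows in parentheses. Dashed lines mark the shares among all tested rows, 22.7% lower and 16.5% higher; the glycolysis and histone lists reach 77.1% and 94.1% lower, and the ATF4 list 50% higher.

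Glycolysis and hypoxia genes were lower nearly throughout. Of 35 tested rows 27 fell (77.1%) and 2 rose, with a median difference of -0.86; without scramble replicate 1, 28 fell. These genes encode the enzymes that turn glucose into lactate, the transporters for both, and targets of the transcription factor HIF1A, which is stabilised when oxygen is short. HIF1A binds the core letters ACGTG. The first RefSeq promoter windows of LDHA, CA9 and P4HA1 (GRCh38.p14, 250 bases before to 50 after the start, gene strand) are shown because these genes were among those that fell and their windows hold ACGTG or its complement CACGT, which are in capitals; CACGTG reads as both.
LDHA, chr11:18394313-18394612, plus strand: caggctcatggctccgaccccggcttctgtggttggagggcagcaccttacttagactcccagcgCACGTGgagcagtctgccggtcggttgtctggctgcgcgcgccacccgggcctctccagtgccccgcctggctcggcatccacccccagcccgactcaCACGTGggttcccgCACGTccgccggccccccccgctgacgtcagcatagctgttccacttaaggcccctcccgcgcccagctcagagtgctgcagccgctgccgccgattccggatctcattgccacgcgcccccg
CA9, chr9:35673678-35673977, plus strand: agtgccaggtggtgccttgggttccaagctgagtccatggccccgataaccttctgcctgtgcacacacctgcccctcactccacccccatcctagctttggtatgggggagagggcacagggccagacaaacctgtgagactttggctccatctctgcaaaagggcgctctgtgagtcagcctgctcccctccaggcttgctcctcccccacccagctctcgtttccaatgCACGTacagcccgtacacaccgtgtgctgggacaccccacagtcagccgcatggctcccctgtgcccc
P4HA1, chr10:73096817-73097116, minus strand: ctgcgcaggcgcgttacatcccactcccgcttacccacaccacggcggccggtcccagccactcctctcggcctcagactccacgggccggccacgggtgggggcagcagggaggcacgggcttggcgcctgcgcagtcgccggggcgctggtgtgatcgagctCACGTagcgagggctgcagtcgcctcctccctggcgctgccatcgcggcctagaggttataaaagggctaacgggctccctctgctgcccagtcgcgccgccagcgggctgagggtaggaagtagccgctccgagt
The motif was searched on both strands and was chosen after the values were seen. It occurred in 26 of the 66 promoter windows of this list (39.4%) and in 21.4% of all 35116 windows of the table. A second LDHA window held none. A match is a description of the letters and not a measured binding site.

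LDHA, which makes lactate from pyruvate, held 1093, 1324 and 1349 FPKM in scramble and 494, 488 and 539 with shCREBBP.1027 (log2 difference -1.30 ± 0.11 SE, limma adjusted p = 5.3e-06). The highest hairpin library was below the lowest scramble library. ENO1, TPI1 and PFKL, enzymes of the glycolytic chain, had differences of -0.96, -1.06 and -1.33. SLC2A1, the main glucose transporter of proliferating cells, held 31.8, 33.1 and 32.6 FPKM in scramble and 16.0, 16.6 and 16.5 with shCREBBP.1027 (log2 difference -0.95 ± 0.10 SE, limma adjusted p = 2.3e-05). PDK1, the kinase that closes the entry of pyruvate into mitochondria, fell from 18.6, 20.2 and 23.3 FPKM to 8.13, 7.95 and 9.45. Among hypoxia targets VEGFA, the endothelial growth factor, held 57.9, 60.5 and 64.3 FPKM in scramble and 18.9, 20.3 and 18.7 with shCREBBP.1027 (log2 difference -1.61 ± 0.10 SE, limma adjusted p = 9.4e-07). P4HA1, a collagen prolyl hydroxylase subunit, fell from 26.2, 33.5 and 38.0 FPKM to 9.63, 8.99 and 10.5 (log2 difference -1.64 ± 0.14 SE, limma adjusted p = 7.4e-06). BNIP3L, a receptor for the removal of mitochondria, fell from 19.8, 26.9 and 28.1 FPKM to 6.50, 6.84 and 7.13 (log2 difference -1.71 ± 0.15 SE, limma adjusted p = 8.4e-06). CA9, a carbonic anhydrase, was low throughout and fell from 2.52, 4.39 and 4.91 FPKM to 0, 0.354 and 0.0898 (log2 difference -2.08 ± 0.24 SE, limma adjusted p = 5.1e-05). The groups did not overlap for any of these genes. GAPDH fell by 0.48 on the log2 scale, but its call was kept in only 12 of 20 alternatives. HIF1A RNA itself was at 44.6, 62.5 and 62.8 FPKM in scramble and 61.4, 65.5 and 60.9 with shCREBBP.1027 and was not called (limma adjusted p = 0.303). Of the 2 rises, ARRDC3, an arrestin-domain protein, held 11.4, 16.6 and 16.6 FPKM in scramble and 24.9, 28.8 and 26.1 with shCREBBP.1027 (log2 difference 0.82 ± 0.13 SE, limma adjusted p = 5.2e-04). TXNIP, its relative that restrains glucose uptake, was at 27.2, 43.2 and 0 FPKM in scramble and 82.4, 83.7 and 80.6 with shCREBBP.1027, where the value of 0 in scramble replicate 3 can be a failed estimate and the call was kept in 9 of 19 alternatives.

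**Figure D4:**
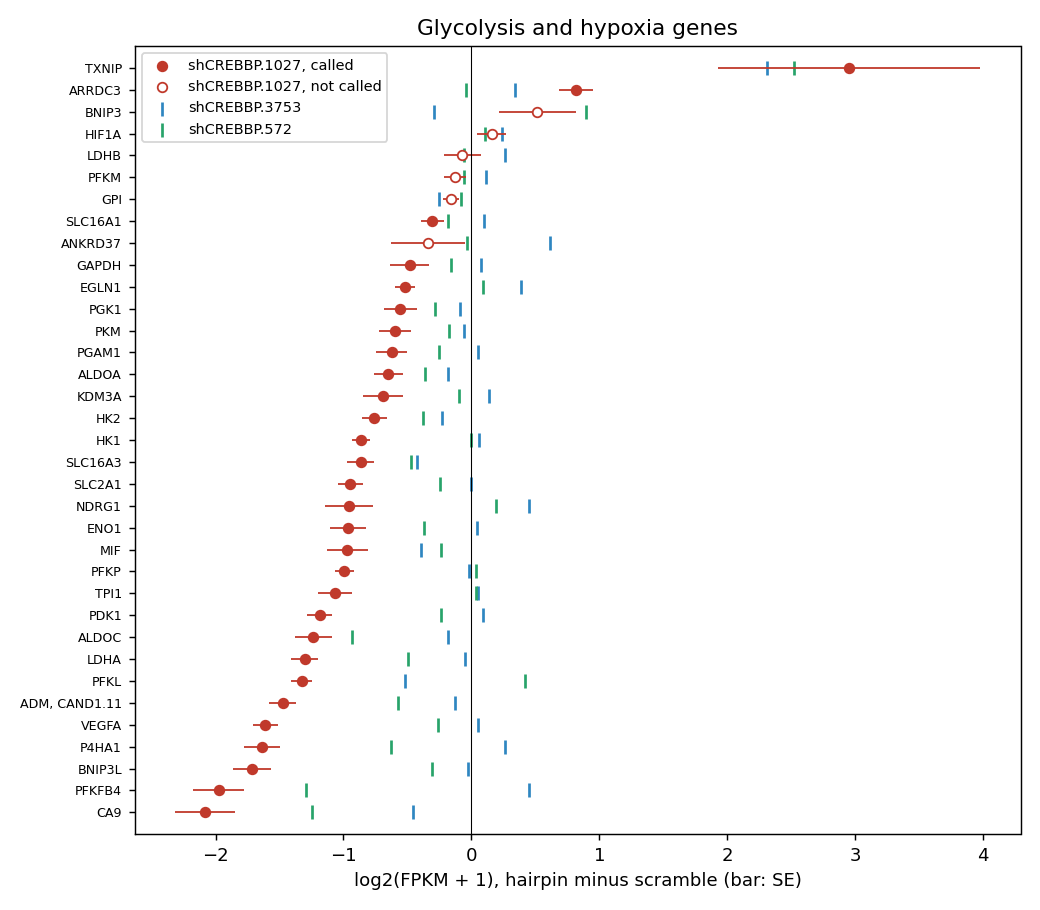
Differences from scramble (log2(FPKM + 1), horizontal axis) of the 35 tested rows of the glycolysis and hypoxia list, ordered by shCREBBP.1027 (circles, filled where called, with SE bars), with those of shCREBBP.3753 (blue ticks) and shCREBBP.572 (green ticks), which share the scramble libraries. The shCREBBP.1027 median is -0.86, against 0.05 and -0.18 for the others.

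The values of the other hairpins for these genes stood nearer to scramble. With shCREBBP.3753, 3 of the 35 rows were called lower and 1 higher, and with shCREBBP.572 9 lower and 1 higher; these comparisons share the scramble libraries. Of all tested rows 16.1% were called higher and 13.2% lower than scramble with shCREBBP.3753, and 8.99% higher and 10.8% lower with shCREBBP.572. The direct comparison of shCREBBP.1027 with the mean of those hairpins, which uses no scramble library, called 27 rows lower and 1 higher, with a median of -0.68. In that comparison 17.1% of all rows were called higher and 26.0% lower. LDHA was lower there by a log2 difference of -1.03 ± 0.09 SE (limma adjusted p = 7.3e-06) and VEGFA by -1.51 ± 0.09 SE (limma adjusted p = 5.0e-07).

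DNA replication genes and replication-dependent histone genes fell with few exceptions. Of 44 rows for replication and the G1/S transition 37 fell and none rose (median -0.66), and of 34 histone rows 32 fell and none rose (median -0.82). Without scramble replicate 1 the falls were 41 and 33. POLE, the catalytic subunit of the leading-strand polymerase, held 26.0, 22.8 and 20.2 FPKM in scramble and 8.68, 8.37 and 9.32 with shCREBBP.1027 (log2 difference -1.29 ± 0.09 SE, limma adjusted p = 1.6e-06). CLSPN, a checkpoint adaptor at the fork, held 21.2, 24.1 and 22.4 FPKM in scramble and 9.54, 8.27 and 8.65 with shCREBBP.1027 (log2 difference -1.26 ± 0.09 SE, limma adjusted p = 2.4e-06). CDC45, part of the replicative helicase, fell from 25.9, 38.9 and 41.4 FPKM to 17.2, 12.9 and 13.6, and RRM2, which makes deoxyribonucleotides, from 108, 128 and 115 to 52.6, 52.2 and 56.5. The histone gene HIST4H4 held 218, 329.5 and 359 FPKM in scramble and 96.7, 127 and 119 with shCREBBP.1027 (log2 difference -1.37 ± 0.16 SE, limma adjusted p = 7.1e-05), and HIST1H1B, a linker histone gene, held 1718, 2477 and 2592 FPKM in scramble and 1206, 1187 and 1151 with shCREBBP.1027 (log2 difference -0.91 ± 0.14 SE, limma adjusted p = 3.8e-04). In each of these genes the groups were separate, with scramble replicate 1 nearest to the hairpin in CDC45, RRM2, HIST4H4 and HIST1H1B. Histone messengers lack a poly(A) tail and were measured here because the libraries were not selected for poly(A); several histone rows join neighbouring genes, and near-identical copies can share reads.

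With shCREBBP.3753, 38 replication rows and 32 histone rows were lower than scramble, where 13.2% of all rows were, and with shCREBBP.572 3 and 2 were, where 10.8% of all rows were. Against the mean of both hairpins shCREBBP.1027 was lower in 25 replication rows and 21 histone rows and higher in none. Among 48 genes of G2 and mitosis 26 fell (54.2%) and 1 rose, with a median of -0.43 and 33 falls without scramble replicate 1. The rise was in a row shared by CKS2 and SECISBP2. TOP2A, the topoisomerase that untangles chromosomes, held 78.4, 111 and 103 FPKM in scramble and 40.3, 41.6 and 36.6 with shCREBBP.1027 (log2 difference -1.27 ± 0.12 SE, limma adjusted p = 1.4e-05). AURKB, a mitotic kinase, fell from 61.6, 69.1 and 83.3 FPKM to 38.8, 38.0 and 37.9 (log2 difference -0.87 ± 0.10 SE, limma adjusted p = 6.1e-05). HMMR, a spindle-associated protein, fell from 21.3, 34.2 and 28.6 FPKM to 13.0, 14.2 and 12.1 (log2 difference -1.02 ± 0.15 SE, limma adjusted p = 2.9e-04). MKI67, the proliferation marker, was at 101, 53.5 and 37.7 FPKM in scramble and 51.2, 36.7 and 50.1 with shCREBBP.1027 and was not called (limma adjusted p = 0.317). CDC20 and PTTG1, which act at the exit from metaphase, had differences of 0.06 and 0.06 and were not called.

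The promoters of mitotic genes are known for CCAAT boxes, bound by the factor NF-Y, and for the cell cycle homology element TTTGAA. The TOP2A window (GRCh38.p14, chr17:40417847-40418146, minus strand) is shown as an example from this list, with CCAAT and its complement ATTGG in capitals.
TOP2A: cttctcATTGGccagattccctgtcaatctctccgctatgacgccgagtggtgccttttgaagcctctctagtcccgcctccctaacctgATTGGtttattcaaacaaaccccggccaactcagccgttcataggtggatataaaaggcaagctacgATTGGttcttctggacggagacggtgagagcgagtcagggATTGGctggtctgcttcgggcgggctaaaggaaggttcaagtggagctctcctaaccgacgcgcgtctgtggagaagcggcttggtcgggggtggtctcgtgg
It held 4 matches. CCAAT or ATTGG occurred in 38 of 47 windows of the G2 and mitosis list (80.9%) and in 34.6% of all windows, and TTTGAA or its complement TTCAAA in 33 of 47 (70.2%) and 15.2% of all. These shares describe the list, whose members did not all fall.

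Antigen presentation genes fell. MHC class II molecules carry peptides from the endosome to the surface of B cells for helper T cells. Of 17 class II rows 14 fell (82.4%) and none rose, with a median of -0.81 and 15 falls without scramble replicate 1. HLA-DRA, the little-varying alpha chain of HLA-DR, held 335, 517 and 543 FPKM in scramble and 171, 201 and 196 with shCREBBP.1027 (log2 difference -1.26 ± 0.16 SE, limma adjusted p = 9.7e-05). HLA-DMA, a chain of the peptide exchanger, held 55.2, 61.8 and 75.3 FPKM in scramble and 25.1, 27.3 and 28.4 with shCREBBP.1027 (log2 difference -1.21 ± 0.11 SE, limma adjusted p = 1.1e-05). HLA-DOA, of the molecule that restrains it, held 17.8, 18.2 and 21.5 FPKM in scramble and 7.10, 7.95 and 7.66 with shCREBBP.1027 (log2 difference -1.23 ± 0.08 SE, limma adjusted p = 1.3e-06). CD74, the invariant chain that escorts class II molecules, held 857, 1108 and 1168 FPKM in scramble and 527, 538 and 556 with shCREBBP.1027 (log2 difference -0.94 ± 0.11 SE, limma adjusted p = 7.0e-05). CIITA, the coactivator that switches class II genes on, held 35.7, 25.4 and 26.3 FPKM in scramble and 18.5, 18.5 and 18.9 with shCREBBP.1027 (log2 difference -0.60 ± 0.13 SE, limma adjusted p = 0.00401). The groups were separate in all of these genes. Of the factors that bind class II promoters, RFX5 fell by 0.35 on the log2 scale, and RFXAP and RFXANK were at -0.07 and 0.17 and not called. HLA genes are polymorphic and similar to each other, and some stand on several rows, so reads may have been divided between them.

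The CD74 promoter window (GRCh38.p14, chr5:150412861-150413160, minus strand) is shown for its CCAAT box, an element that class II promoters share, in capitals.
CD74: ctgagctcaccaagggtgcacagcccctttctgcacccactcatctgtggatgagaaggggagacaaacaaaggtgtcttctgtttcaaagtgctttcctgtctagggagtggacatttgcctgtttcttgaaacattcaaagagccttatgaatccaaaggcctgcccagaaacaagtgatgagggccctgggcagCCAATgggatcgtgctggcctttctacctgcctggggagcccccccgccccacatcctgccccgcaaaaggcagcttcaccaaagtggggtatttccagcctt
CCAAT or ATTGG occurred in 14 of 22 windows of the class II list (63.6%), against 34.6% of all windows. With shCREBBP.3753 6 class II rows were lower than the same scramble libraries, and with shCREBBP.572 13 were, against 13.2% and 10.8% of all rows. Against their mean shCREBBP.1027 was lower in 10 rows and higher in 1, which was CIITA, at 0.42 ± 0.12 SE (limma adjusted p = 0.0127); its mean was 16.9 ± 1.25 FPKM with shCREBBP.3753 and 11.2 ± 1.89 with shCREBBP.572 (SD, n = 3 each). Of 16 class I rows, for the pathway that shows cytosolic peptides to cytotoxic T cells, 10 fell and none rose (median -0.48; 13 falls without scramble replicate 1). The row shared by HLA-B and HLA-C held 350.1, 386 and 409 FPKM in scramble and 169.6, 171 and 174 with shCREBBP.1027 (log2 difference -1.15 ± 0.08 SE, limma adjusted p = 1.4e-06). B2M, the light chain, had a difference of -0.33 and was not called (limma adjusted p = 0.0573), but without scramble replicate 1 it was called lower (limma adjusted p = 5.7e-04).

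Genes of plasma cells and of the secretory pathway were lower, with 22 of 33 rows called down (66.7%) and 0 up, with a median of -0.50 and 23 falls without scramble replicate 1. Against the same scramble libraries 14 rows were lower with shCREBBP.3753 and 20 with shCREBBP.572, where 13.2% and 10.8% of all rows were. Against the mean of those hairpins shCREBBP.1027 was lower in 11 rows and higher in 4 (median -0.11). There 26.0% of all rows were lower and 17.1% higher. The row of MZB1, an endoplasmic reticulum protein of antibody-forming B cells, and PROB1 held 279.8, 336 and 329 FPKM in scramble and 85.9, 80.8 and 81.3 with shCREBBP.1027 (log2 difference -1.91 ± 0.09 SE, limma adjusted p = 2.0e-07). SSR3, a subunit of the complex beside the translocon, held 66.2, 85.7 and 83.0 FPKM in scramble and 27.3, 27.4 and 27.2 with shCREBBP.1027 (log2 difference -1.48 ± 0.09 SE, limma adjusted p = 9.6e-07). HSPA5, the main chaperone of the endoplasmic reticulum, held 159, 113 and 92.5 FPKM in scramble and 66.0, 56.1 and 62.3 with shCREBBP.1027 (log2 difference -0.94 ± 0.16 SE, limma adjusted p = 8.1e-04). Scramble replicate 1 was the highest of the 6 libraries for HSPA5 and the lowest scramble library for SSR3, and the groups were separate for both. SDC1, the plasma cell surface marker, fell from 3.41, 5.45 and 5.68 FPKM to 1.18, 0.856 and 1.07 (log2 difference -1.5 ± 0.17 SE, limma adjusted p = 4.2e-05). XBP1, the transcription factor that drives this programme, was at 81.0, 105 and 103 FPKM in scramble and 106, 105 and 97.2 with shCREBBP.1027 and was not called (limma adjusted p = 0.477), whereas PRDM1, the repressor that sets plasma cell identity, fell by 0.38.

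B-cell identity genes moved in both directions. Of 26 B-cell transcription factor rows 13 fell and 6 rose, against 14 and 7 without scramble replicate 1. Besides SPIB, ETS1 fell from 54.6, 64.1 and 59.4 FPKM to 30.1, 29.6 and 27.6 (log2 difference -1.0 ± 0.07 SE, limma adjusted p = 2.6e-06), and TCF3, which encodes the E proteins of lymphoid cells, from 189.6, 195 and 206 to 112, 109 and 109 (log2 difference -0.83 ± 0.07 SE, limma adjusted p = 5.7e-06). IKZF1, encoding Ikaros, held 66.3, 72.3 and 72.2 FPKM in scramble and 42.4, 41.6 and 41.9 with shCREBBP.1027 (log2 difference -0.73 ± 0.06 SE, limma adjusted p = 1.0e-05). BCL6, the germinal centre repressor, held 95.5, 105 and 106 FPKM in scramble and 79.7, 83.2 and 80.0 with shCREBBP.1027 (log2 difference -0.33 ± 0.07 SE, limma adjusted p = 0.00353). BATF, a partner of IRF4, rose from 15, 19.2 and 23.6 FPKM to 26.0, 32.7 and 32.7 (log2 difference 0.65 ± 0.17 SE, limma adjusted p = 0.00960). The row that joins MEF2B with its neighbour genes rose by 0.61. In each the groups did not overlap, with the BCL6 and BATF groups closest.

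Of 24 B-cell receptor signalling rows 7 fell and 4 rose, and without scramble replicate 1 8 and 4. BTK, a kinase of this pathway, fell from 45.2, 62.4 and 62.5 FPKM to 33.2, 39.8 and 32.8 (log2 difference -0.66 ± 0.13 SE, limma adjusted p = 0.00189), whereas PLCG2, its substrate phospholipase, rose from 722, 941 and 1066 FPKM to 1354, 1800 and 1745 (log2 difference 0.85 ± 0.15 SE, limma adjusted p = 7.9e-04). The receptor chains CD79A and CD79B had differences of 0.31 and -0.13 and were not called. Of 31 surface antigen and costimulation rows 8 fell and 4 rose, and without scramble replicate 1 10 and 4. PTPRCAP, a partner of the leukocyte phosphatase CD45, fell from 9.89, 10.7 and 13.1 FPKM to 1.84, 1.90 and 2.74 (log2 difference -1.96 ± 0.16 SE, limma adjusted p = 5.1e-06). Of 16 germinal centre marker rows 9 fell and 1 rose, and without scramble replicate 1 10 and 1. The rise was STAP1, an adaptor protein, from 5.27, 5.24 and 6.46 FPKM to 16.6, 19.8 and 13.4 (log2 difference 1.39 ± 0.17 SE, limma adjusted p = 7.5e-05). CXCR4, the receptor that places cells in the dark zone, fell from 184, 247 and 289 FPKM to 149, 163 and 147 (log2 difference -0.62 ± 0.13 SE, limma adjusted p = 0.00286), with scramble replicate 1 the nearest scramble library to the hairpin.

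Cytoskeletal genes were mostly lower. Of 46 rows for actin, tubulin and migration 30 fell (65.2%) and 3 rose, with a median of -0.41 and 32 falls without scramble replicate 1. Beside TUBB3, the alpha-tubulin gene TUBA1A held 37.6, 59.8 and 69.2 FPKM in scramble and 17.2, 16.9 and 17.8 with shCREBBP.1027 (log2 difference -1.58 ± 0.17 SE, limma adjusted p = 4.1e-05). FLNA, which crosslinks actin filaments, held 111, 87.3 and 84.2 FPKM in scramble and 39.9, 38.7 and 39.9 with shCREBBP.1027 (log2 difference -1.22 ± 0.11 SE, limma adjusted p = 9.8e-06). VIM, the intermediate filament vimentin, held 184, 191 and 202 FPKM in scramble and 97.1, 93.4 and 97.4 with shCREBBP.1027 (log2 difference -0.99 ± 0.07 SE, limma adjusted p = 2.0e-06). The row of CORO1A, the actin regulator coronin of leukocytes, fell by 1.77. ACTB was called lower, at 2751, 2761 and 2892 FPKM in scramble and 2360, 2359 and 2372 with shCREBBP.1027, but this call was kept in only 7 of 20 alternatives. The rises were in CTTN, in RHOH, a GTPase of blood cells, at 0.39, and in ELMO1, which activates RAC through DOCK proteins, at 28.9, 21.7 and 21.7 FPKM in scramble and 36.1, 37.1 and 37.9 with shCREBBP.1027 (log2 difference 0.61 ± 0.10 SE, limma adjusted p = 6.8e-04). CFL1, PFN1 and MSN, abundant actin-regulating genes, had differences of 0.02, 0.04 and 0.10 and were not called.

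Genes of the amino acid stress response had the largest share of rises among the 27 lists. The transcription factor ATF4 is translated when amino acids run short or proteins misfold, and it raises amino acid transporters, biosynthetic enzymes and aminoacyl-tRNA synthetases. Of 38 rows 19 rose (50%) and 5 fell, with a median of 0.30; without scramble replicate 1 these were 20 and 7. Across 20 alternatives 15 to 23 rows rose. ATF4 held 299, 407 and 429 FPKM in scramble and 548, 603 and 539 with shCREBBP.1027 (log2 difference 0.59 ± 0.12 SE, limma adjusted p = 0.00268). The row of SLC7A11, the light chain of the cystine importer whose heavy chain is SLC3A2, held 7.09, 5.51 and 6.43 FPKM in scramble and 20.9, 23.3 and 23.2 with shCREBBP.1027 (log2 difference 1.68 ± 0.10 SE, limma adjusted p = 6.0e-07). Both partners of that importer thus rose, and for both every hairpin library was above every scramble library. CHAC1, which degrades glutathione, held 11.7, 15.5 and 18.4 FPKM in scramble and 31.4, 32.1 and 27.2 with shCREBBP.1027 (log2 difference 0.96 ± 0.15 SE, limma adjusted p = 4.9e-04). PSAT1 and PHGDH, of serine synthesis, had differences of 0.50 and 0.49, and the synthetase genes GARS, TARS and YARS of 0.56, 0.53 and 0.49, all called. ASNS, TRIB3, ATF3 and DDIT3, other targets of the response, had differences of 0.14, 0.05, 0.09 and 0.38 and were not called. SHMT2, a mitochondrial enzyme of serine use, fell from 173, 232 and 237 FPKM to 99.98, 103 and 99.3 (log2 difference -1.06 ± 0.10 SE, limma adjusted p = 1.8e-05).

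The CHAC1 promoter window (GRCh38.p14, chr15:40953221-40953520, plus strand) is shown because it holds a match, in capitals, to the ATF4 and C/EBP composite element TGATGNAA, where N is any base, here read as its complement TTNCATCA.
CHAC1: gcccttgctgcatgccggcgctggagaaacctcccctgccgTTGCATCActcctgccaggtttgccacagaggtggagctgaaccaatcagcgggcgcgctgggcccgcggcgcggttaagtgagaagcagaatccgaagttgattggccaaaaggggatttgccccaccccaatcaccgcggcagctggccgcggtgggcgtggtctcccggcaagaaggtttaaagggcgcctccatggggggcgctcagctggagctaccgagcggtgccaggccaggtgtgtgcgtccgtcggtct
This motif, chosen after the values were seen, occurred in 8 of 46 windows of the list (17.4%) and in 3.62% of all windows. Against the same scramble libraries 14 rows of the list rose and 1 fell with shCREBBP.572, where 8.99% of all rows rose and 10.8% fell. With shCREBBP.3753 3 rose and 10 fell, where 16.1% of all rows rose and 13.2% fell. In the direct comparison with their mean 18 rows were higher with shCREBBP.1027 and 8 lower.

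**Figure D5:**
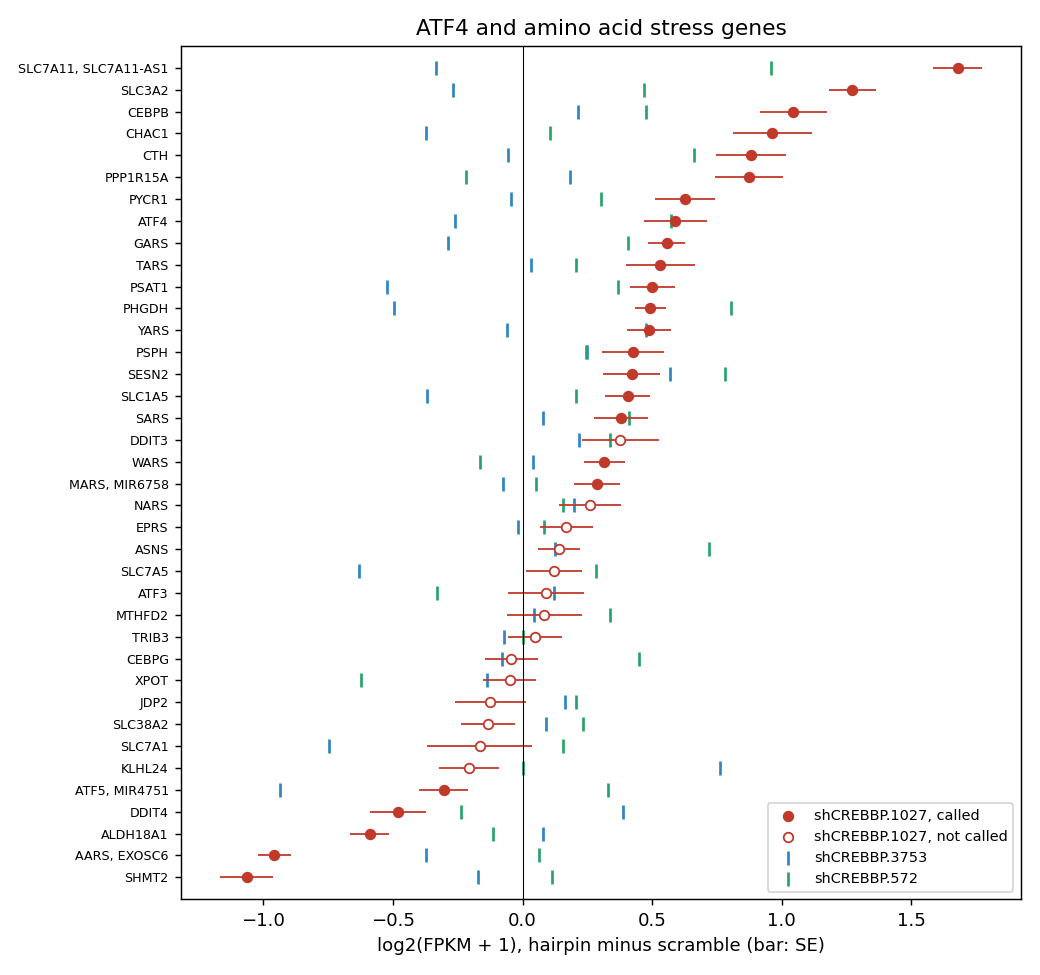
Differences from scramble (log2(FPKM + 1), horizontal axis) of the 38 tested rows of the ATF4 and amino acid stress list, ordered by shCREBBP.1027 (circles, filled where called, with SE bars), with shCREBBP.3753 (blue ticks) and shCREBBP.572 (green ticks), which share the scramble libraries. SLC7A11 and SLC3A2 lead with 1.68 and 1.27, and SHMT2 is lowest at -1.06.

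Antioxidant and metal response genes also leaned upward. Of 27 rows 12 rose (44.4%) and 2 fell, with a median of 0.16. Without scramble replicate 1, 10 rose and 7 fell, with a median of 0.01. NQO1, a quinone reductase, held 2.57, 2.92 and 3.34 FPKM in scramble and 6.67, 8.01 and 6.58 with shCREBBP.1027 (log2 difference 1.04 ± 0.13 SE, limma adjusted p = 1.3e-04). FTH1, the heavy chain of ferritin, held 185, 186 and 181 FPKM in scramble and 273, 293 and 272 with shCREBBP.1027 (log2 difference 0.60 ± 0.07 SE, limma adjusted p = 9.3e-05). HMOX1, which degrades heme, rose from 4.51, 3.44 and 3.35 FPKM to 6.19, 6.71 and 5.40 (log2 difference 0.58 ± 0.15 SE, limma adjusted p = 0.00867). The metallothionein MT2A was at 10.8, 22.3 and 24.2 FPKM in scramble and 33.4, 35.7 and 39.2 with shCREBBP.1027, and its call was lost without scramble replicate 1 (limma adjusted p = 0.0504). CAT, catalase, fell by 0.41.

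Mitochondrial and lysosomal genes were mixed. Of 53 oxidative phosphorylation rows 13 rose and 8 fell, and without scramble replicate 1 12 and 13. Across 20 alternatives 6 to 25 rose and 5 to 17 fell, so no direction is given for this list. COX7C, a small subunit of cytochrome oxidase, held 111, 155 and 154 FPKM in scramble and 268, 329.9 and 287 with shCREBBP.1027 (log2 difference 1.08 ± 0.13 SE, limma adjusted p = 8.7e-05), whereas COX8A, another subunit of the enzyme, held 144, 171 and 161 FPKM in scramble and 73.9, 88.2 and 85.2 with shCREBBP.1027 (log2 difference -0.94 ± 0.10 SE, limma adjusted p = 3.9e-05). SDHA, the flavoprotein of succinate dehydrogenase, fell from 92.6, 107 and 108 FPKM to 56.8, 60.5 and 59.1 (log2 difference -0.79 ± 0.07 SE, limma adjusted p = 1.1e-05). Of 35 lysosome and autophagy rows 10 rose and 6 fell, and without scramble replicate 1 10 and 8. GAA, the lysosomal glucosidase, held 28.2, 24.0 and 25.6 FPKM in scramble and 10.5, 9.63 and 9.55 with shCREBBP.1027 (log2 difference -1.30 ± 0.13 SE, limma adjusted p = 1.7e-05), in contrast to PSAP and to ASAH1, a ceramidase, at 5.05, 9.22 and 10.9 FPKM in scramble and 15.2, 15.9 and 16.6 with shCREBBP.1027 (log2 difference 0.90 ± 0.20 SE, limma adjusted p = 0.00432).

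Lipid synthesis genes split as well. Of 40 rows for cholesterol and fatty acids 13 fell and 5 rose, and without scramble replicate 1 16 and 4. ACLY, which supplies cytosolic acetyl-CoA, the substrate of lipid synthesis and of histone acetylation, held 136, 144 and 145 FPKM in scramble and 64.0, 61.0 and 61.0 with shCREBBP.1027 (log2 difference -1.18 ± 0.06 SE, limma adjusted p = 2.8e-07). FADS1, a fatty acid desaturase, fell from 8.90, 10.1 and 10.6 FPKM to 3.18, 3.12 and 2.89 (log2 difference -1.42 ± 0.09 SE, limma adjusted p = 9.4e-07). MVD, an enzyme of the mevalonate pathway, rose from 18.5, 22.6 and 26.9 FPKM to 51.5, 82.0 and 44.6 (log2 difference 1.32 ± 0.23 SE, limma adjusted p = 0.00104). Its locus (chromosome 16, 88718348 to 88729539) lies next to that of CYBA (chromosome 16, 88709697 to 88717492), which fell, and whether values were assigned by strand is not given in the sources used here.

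MYC RNA was not called. It was at 179, 183 and 171 FPKM in scramble and 185, 184 and 174 with shCREBBP.1027 (log2 difference 0.03 ± 0.07 SE, limma adjusted p = 0.777). Among 37 rows of MYC partners and ribosome biogenesis 9 fell and 4 rose, and without scramble replicate 1 17 and 3. Across 20 alternatives 6 to 19 fell and 3 to 12 rose. BOP1, of 60S assembly, fell by 0.69, and GAR1, of small nucleolar particles, rose by 0.74. Of 75 cytosolic ribosomal protein rows 2 rose and 2 fell, but 1 rose and 20 fell without scramble replicate 1. Across 20 alternatives 0 to 53 rose and 0 to 20 fell, so no direction is given for this family.

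Interferon-stimulated genes moved in both directions, with 8 of 32 rows higher and 8 lower (median -0.06), and without scramble replicate 1 8 and 7. OAS1, an antiviral synthetase, held 1.33, 3.61 and 2.44 FPKM in scramble and 6.61, 8.23 and 8.35 with shCREBBP.1027 (log2 difference 1.38 ± 0.26 SE, limma adjusted p = 0.00134). DDX58, which encodes the RNA sensor RIG-I, rose from 2.44, 1.90 and 2.61 FPKM to 6.30, 6.02 and 6.26 (log2 difference 1.12 ± 0.12 SE, limma adjusted p = 3.4e-05). ISG20, a nuclease, fell from 26.9, 35.2 and 40.8 FPKM to 8.92, 9.88 and 7.88 (log2 difference -1.82 ± 0.17 SE, limma adjusted p = 1.2e-05). ISG15 was at 18.6, 12.8 and 15.4 FPKM in scramble and 14.7, 17.8 and 13.8 with shCREBBP.1027 and was not called. Against the same scramble libraries 26 rows were higher with shCREBBP.3753 (median 0.91), where 16.1% of all rows were, and 16 were lower with shCREBBP.572 (median -0.53), where 10.8% of all rows were. Of 17 rows for small RNA and hairpin processing 7 fell and 3 rose, and without scramble replicate 1 the counts were equal to these. PRKRA, a partner of DICER1, held 24.5, 32.8 and 31.5 FPKM in scramble and 13.8, 14.6 and 11.6 with shCREBBP.1027 (log2 difference -1.09 ± 0.12 SE, limma adjusted p = 3.3e-05). XPO5, the exporter of hairpin precursors, fell by 0.47, AGO3, an Argonaute protein, rose by 0.55, and DICER1, DROSHA and AGO2 were at -0.04, 0.09 and -0.25 and not called.

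Survival and signalling genes showed single strong changes without a common direction. CDKN1A, the cell cycle inhibitor p21, held 23.9, 29.6 and 29.7 FPKM in scramble and 9.19, 9.46 and 7.89 with shCREBBP.1027 (log2 difference -1.54 ± 0.11 SE, limma adjusted p = 2.0e-06). Of 29 rows of cell cycle inhibitors and p53 targets, CDKN1A included, 5 rose and 7 fell, and without scramble replicate 1 5 and 8. ZMAT3, a p53 target that binds RNA, rose from 7.44, 6.25 and 5.36 FPKM to 13.8, 11.9 and 14.6 (log2 difference 0.98 ± 0.11 SE, limma adjusted p = 5.1e-05). Of 23 BCL2 family and apoptosis rows 6 rose and 6 fell, but without scramble replicate 1 4 rose and 9 fell. PMAIP1, the pro-apoptotic NOXA, held 46.5, 59.0 and 54.3 FPKM in scramble and 95.1, 95.5 and 95.8 with shCREBBP.1027 (log2 difference 0.84 ± 0.09 SE, limma adjusted p = 3.5e-05), and BCL2 had a difference of -0.06 and was not called. Of 13 NF-kappaB target rows 4 rose and 2 fell, with equal counts without scramble replicate 1. BIRC3, an inhibitor of apoptosis that NF-kappaB raises, held 12.1, 13.2 and 14.0 FPKM in scramble and 25, 26.7 and 23.6 with shCREBBP.1027 (log2 difference 0.89 ± 0.09 SE, limma adjusted p = 2.8e-05). Among 30 immediate early and CREB target rows, 4 rose and 7 fell, and without scramble replicate 1 6 and 9. Across 20 alternatives 1 to 9 of them rose and 4 to 9 fell. FOSB, a subunit of AP-1, rose from 1.5, 2.14 and 0.909 FPKM to 4.86, 5.87 and 4.38 (log2 difference 1.28 ± 0.21 SE, limma adjusted p = 6.1e-04), and KLF2, a factor of lymphocyte trafficking, fell from 8.23, 6.19 and 5.68 FPKM to 2.23, 1.66 and 2.10 (log2 difference -1.35 ± 0.22 SE, limma adjusted p = 5.5e-04).

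Among 38 rows of histone acetylation and corepressor genes 10 fell and 7 rose, and without scramble replicate 1 11 and 10. HDAC3, the deacetylase of the NCOR complex that BCL6 recruits, held 27.8, 45.0 and 42.7 FPKM in scramble and 20.5, 21.4 and 21.4 with shCREBBP.1027 (log2 difference -0.81 ± 0.14 SE, limma adjusted p = 9.3e-04). KAT2B, the acetyltransferase PCAF, fell from 2.69, 2.61 and 3.01 FPKM to 1.24, 1.25 and 1.41 (log2 difference -0.71 ± 0.12 SE, limma adjusted p = 7.9e-04). KAT7, the acetyltransferase of replication origins, rose from 25.4, 27.0 and 24.4 FPKM to 36.8, 36.9 and 35.4 (log2 difference 0.49 ± 0.06 SE, limma adjusted p = 9.6e-05). Among 27 chromatin regulators mutated in lymphoma 4 fell and 3 rose, but without scramble replicate 1 6 and 6. Across 20 alternatives 3 to 6 fell and 2 to 8 rose. DNMT3B, a DNA methyltransferase, held 18.0, 18.6 and 16.8 FPKM in scramble and 6.68, 5.77 and 7.49 with shCREBBP.1027 (log2 difference -1.30 ± 0.09 SE, limma adjusted p = 1.6e-06). SETD2, which trimethylates histone H3 along gene bodies, rose from 27.4, 24.0 and 21.8 FPKM to 40.0, 34.6 and 36.5 (log2 difference 0.59 ± 0.09 SE, limma adjusted p = 4.5e-04), and EZH2 and KMT2D were at -0.20 and 0.20 and not called. Without scramble replicate 1 EZH2 was called lower (-0.29) and KMT2D higher (0.71).

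Many of these changes set shCREBBP.1027 apart from the other hairpins as well. Against the mean of shCREBBP.3753 and shCREBBP.572, 2014 rows were called higher (17.1%) and 3062 lower (26.0%), 43.2% in all. Called in both comparisons with the same sign were 1243 rows higher and 2015 lower. Of these, 946 lay above and 1522 below all 9 other libraries, where 9.81% and 14.3% of all tested rows did. The rows were selected by calls on these same libraries, which favours such separation, so the counts only describe them. CD84, a SLAM-family receptor of lymphocytes, was at 5.35, 5.94 and 5.83 FPKM with shCREBBP.1027 and at 1.09, 1.25 and 0.927 with shCREBBP.3753 and 0.440, 0.596 and 0.522 with shCREBBP.572, a difference of 1.91 ± 0.12 SE (limma adjusted p = 9.0e-07). PCBD1 was at 6.41, 8.62 and 7.25 FPKM with shCREBBP.1027, against 51.2, 53 and 50 with shCREBBP.3753 and 37.3, 33.0 and 45.3 with shCREBBP.572, a difference of -2.44 ± 0.12 SE (limma adjusted p = 2.0e-07). TUBB3, SPC24, NXPH4 and TUBA1A were lower by -3.23 ± 0.09, -1.89 ± 0.09, -1.94 ± 0.13 and -1.92 ± 0.15 (log2 difference, SE). CCDC74A was lower by -2.01 ± 0.13.

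For RAG1 and ABHD12B, which are also among the largest differences between the hairpins, the other hairpins differed from scramble the opposite way. RAG1, a subunit of the recombinase of antigen receptor genes, was at 29.8, 35.6 and 38.2 FPKM in scramble and 16.2, 17.8 and 14.5 with shCREBBP.1027, but at 61.4, 56.7 and 65.5 with shCREBBP.3753 and 60.1, 52.1 and 64.1 with shCREBBP.572. ABHD12B, a serine hydrolase family member, was at 4.76, 5.38 and 3.53 FPKM in scramble and 7.45, 7.80 and 8.79 with shCREBBP.1027, but at 0.460, 0.836 and 0.625 and 0.988, 1.82 and 0.815 with the others. For both genes the scramble libraries lay between those of shCREBBP.1027 and those of the other hairpins, with no overlap, and all 3 hairpins were called against scramble. COX7C, TNFRSF14, PTPRCAP and OAS1 were called against scramble but not against the mean of the other hairpins, with differences of 0.16 ± 0.11, 0.06 ± 0.14, -0.17 ± 0.14 and 0.22 ± 0.22 SE. For TNFRSF14 and PTPRCAP the mean of shCREBBP.1027 lay between those of the other hairpins. TNFRSF14 was at 4.79 FPKM, against 7.74 with shCREBBP.3753 and 2.58 with shCREBBP.572, and PTPRCAP at 2.16, against 5.81 and 0.852. The 3 hairpins are aimed by name at 1 gene and carry different numbers, and their sequences are not given. Hairpins are therefore not treated as replicates of a condition. These comparisons cannot tell a difference in target RNA from other differences between the hairpin lines.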

How the data were processed

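RNA was profiled in 12 libraries of MD901 cells, 3 with each of 3 hairpins and 3 with scramble. The submitters' processing notes name CASAVA 1.8, TopHat2, Cufflinks and the build hg19. The authors deposited 1 table with a value per locus and library, read here as FPKM because the notes name Cufflinks and the values behave so; the table states no unit, and the gene annotation is not given in the sources used here, nor is strand handling. Coordinates are hg19, counted from 1, except for promoter windows, which are from RefSeq on GRCh38.p14 and were matched by gene symbol.

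Values were tested as log2(FPKM + 1) over 11757 rows with limma 3.58.1 in R 4.3.3, with group means for all 12 libraries and a variance trend, after a check on simulated data. That check called 36 of 100 rows changed by 0.5 on the log2 scale, 78 of 100 changed by 1, and 7 unchanged rows. It changed far fewer rows than were called here, so these shares need not hold for the data. A row not called can still have changed. Benjamini-Hochberg adjustment covered all tested rows, at 0.05. The contrasts were shCREBBP.1027 minus scramble and minus the mean of the other hairpins. CREBBP and EP300 also had exact permutation tests. Low values did not resolve into whole reads, with 13.9% to 24.3% of them on regular steps, so no count test was run.

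The members, lists and tests were chosen with earlier results of these data known. Named genes were CREBBP and EP300, the 12 largest rises and falls among called rows with 1 unrepeated gene name, no value of 0 and separate groups, the 5 largest of each at 100 FPKM or more, up to 2 called rises and 2 falls per list, and the 8 largest differences each way from the other hairpins. Further list members, and RNVU1-19, are examples chosen after their values were seen. Some rows that the rule names are not reported here. Of the 24181 rows, 725 hold several names and 5732 a repeated name, where reads may have been divided. Alternatives were 3 scalings, 2 pseudocounts, 3 filters, 5 forms of the fit and leaving out each library, with GC adjustment added after seeing the data.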

Additional observations from a re-analysis of the deposited data

Results flagged for a closer look

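The 6 results here differed between shCREBBP.1027 and the other hairpins in a direct test, and in the single genes among them the hairpins either went opposite ways from scramble or differed in the targeted RNA. The whole comparison called 5076 of 11757 rows. CREBBP was higher with shCREBBP.1027 by 0.74 ± 0.18 SE (log2, limma adjusted p = 0.00708). RAG1, in which shCREBBP.1027 fell and the other hairpins rose against scramble, differed by -1.83. ABHD12B, ELMO1 and TLR7, in which shCREBBP.1027 rose and the other hairpins fell, differed by 2.26, 1.07 and 1.57. TLR7 is a receptor for single-stranded RNA. It held 4.04, 5.08 and 4.92 FPKM in scramble and 6.28, 6.40 and 7.35 with shCREBBP.1027. Its means were 1.74 and 1.45 with shCREBBP.3753 and shCREBBP.572. The rise against scramble was kept in 16 of 19 alternatives and lost without scramble replicate 1 (limma adjusted p = 0.0542).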

How the results depend on the processing

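The counts of rows against scramble stayed within 1.5 times the reported 1938 higher and 2671 lower in all 20 alternatives. Without 1 library at a time they were 1403 to 1959 higher and 2191 to 3166 lower, and against the other hairpins 1475 to 1890 higher and 2462 to 2937 lower; CREBBP was at 0.24 to 0.80 against scramble. CREBBP was called higher with array weights (0.70, limma adjusted p = 2.2e-04) and without scramble replicate 1 (0.80); array weights gave that library a weight of 0.136. Of 131 other named rows 113 kept direction and call in every alternative and 0 reversed. The numbers of the replicates do not pair the libraries: deviations of same-numbered libraries correlated at 0.09, 0.13 and -0.06. With the replicate as a block 1961 rows were higher and 2669 lower, and CREBBP was at 0.47 (limma adjusted p = 0.1). The spread between 3 scramble libraries limits every comparison, and FPKM gives no depth from which counting error could be taken.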
